A study of Mus musculus with 4 samples.

Results

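BMP and TGF-β signalling was described here through 48 genes listed by symbol, which cover ligands, receptors, SMADs, Id targets, inhibitors and latent TGF-β binding proteins. The values come from the deposited table of bulk RNA-seq from FACS-purified bulge hair follicle stem cells (HF-SCs). It holds 24421 genes, 17044 of them with a mean above 0. A mean above 0 was the condition for a member, so that all 48 meet it by definition. The series has 2 control and 2 miR-205-induced libraries from C57BL/6 mice at postnatal day 44. The induced mice carried pTRE2-miR-205, made in FVB founders and kept as several lines, with Krt14-rtTA, a transactivator driven by the keratin 14 promoter, so that doxycycline chow from day 42 switched miR-205 on for 2 days in keratin 14-positive skin epithelium. Mice of both groups also carried K14-H2BGFP, and the gate kept live cells with high H2BGFP, high CD34 and high integrin α6 that lacked Sca1, which is meant to remove non-epithelial cells. The labels call the control mice untreated, whereas the protocol feeds doxycycline to both groups.

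Ligands of this superfamily bring together type I and type II receptor kinases, which phosphorylate the receptor SMADs. BMPs act mainly through Smad1, Smad5 and Smad9, and TGF-β and activins through Smad2 and Smad3, and both sets enter the nucleus with the shared partner Smad4. In the bulge, BMP signalling is known for holding HF-SCs in quiescence, Id genes are classic BMP targets, and TGF-β signalling and secreted BMP inhibitors are known for favouring entry into growth.

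The deposited value per gene is the mean normalized count over the 4 libraries, and the table has no column for a single library. Induced and control libraries were therefore not compared, and no fold change between them, test or p-value is given. Because the mean is a weighted sum of whole reads, the reads of each library could be solved from it for 39 of the 48 members. The solved libraries carry no name, cannot be assigned to a group, and are numbered from the shallowest to the deepest. Their size factors were 0.716, 0.966, 1.18 and 1.24, so the largest was 1.73 times the smallest, and total reads are unknown. A range over these libraries covers the groups, the samples and counting error together, and in bulk RNA fewer cells of a type and less RNA per cell cannot be told apart. All 14 HF-SC markers were present, with means from 590 to 146090, although Cd34 and the integrin gene Itga6 encode proteins of the kind used in the sort. Markers of other cells were also read. The resolved suprabasal markers summed to 2319, 5261, 2855 and 2563 normalized counts in libraries 1 to 4, with library 2 standing apart, and Sbsn and Krt10, not resolved, had means of 10749 and 7246. Myeloid markers summed to 2310 to 5276 per library, melanocyte markers to 342 to 2020, resolved sebaceous markers to 250 to 549 and endothelial markers to 53.0 to 165. The fibroblast markers were uneven. The collagen genes Col1a1, Col1a2 and Col3a1 had means of 5186, 4699 and 3397, whereas Lum had 168, Pdgfra 39.5 and Dpt 34.8. Dermal papilla, adipocyte and T cell markers had means of at most 66.0, 1.70 and 9.52.

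The sequence at the centre of the experiment is that of the induced miRNA. Mature miR-205-5p (RefSeq, GRCm38.p6, chr1:193507503-193507524, minus strand) is shown with its seed, bases 2 to 8, in capitals.
miR-205-5p: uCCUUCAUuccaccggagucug
The DNA word that pairs with this seed is ATGAAGG, searched on the transcribed strand of the longest annotated 3′UTR. It was found in 6 of 48 members (12.5%), against 10.96% of the 15273 genes with an annotated 3′UTR. These were the ligand gene Tgfb3, the receptor genes Tgfbr1, Tgfbr3 and Bmpr1b, the nuclear SMAD repressor gene Skil and the pseudoreceptor gene Bambi. The sites are printed to show what the members share beyond the word itself, with the match in capitals and 5′ to 3′ on the transcript, except for Bambi.
Tgfb3: ccctacaaaagATGAAGGgtagagtggtc
Bmpr1b: gagtgaaacaaATGAAGGgttggtgtcac
Tgfbr1: gttaagctagcATGAAGGaagtatgactt
Tgfbr3: tggtttttaacATGAAGGtgtctttgggg
Skil: atcttatttgcATGAAGGtagctaggcat
On NCBIM37 with the GENCODE vM1 annotation, the matches lie at chr12:87398402-87398408 (minus strand, exon 7 of 7) for Tgfb3, chr3:141502985-141502991 (minus strand, exon 11 of 11) for Bmpr1b, chr4:47426222-47426228 (plus strand, exon 9 of 9) for Tgfbr1, chr5:107537088-107537094 (minus strand, exon 17 of 17) for Tgfbr3 and chr3:31017623-31017629 (plus strand, exon 7 of 7) for Skil, all in the 3′UTR. In Tgfbr1 the match is followed by A, the base that lies opposite base 1 of the miRNA, and in the other 5 it is not. A match is a description of the sequence and not evidence of binding.

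As a set, the 48 listed members lay high among all genes in sorted HF-SCs. The median member had a mean normalized count of 994, at percentile 85.5 of all genes above 0. Levels of different genes are compared per kilobase of the longest annotated protein-coding transcript, and on that scale the member median was 254 normalized counts per kilobase, against 55.2 over the 15509 genes with a length. In all, 33 of 48 members exceeded 100 per kilobase, against 37.9% of those genes. This holds for the list, which was chosen with earlier results of these data known. Of 62 other pathway genes, described below, 21 exceeded 100 per kilobase. By role, the median was 2700 for the Id targets, 855 for the latent binding proteins, 477 for the intracellular inhibitors, 334 for the SMADs, 206 for the secreted and membrane inhibitors, 168 for the receptors and 68.7 for the ligands.

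**Figure D1:**
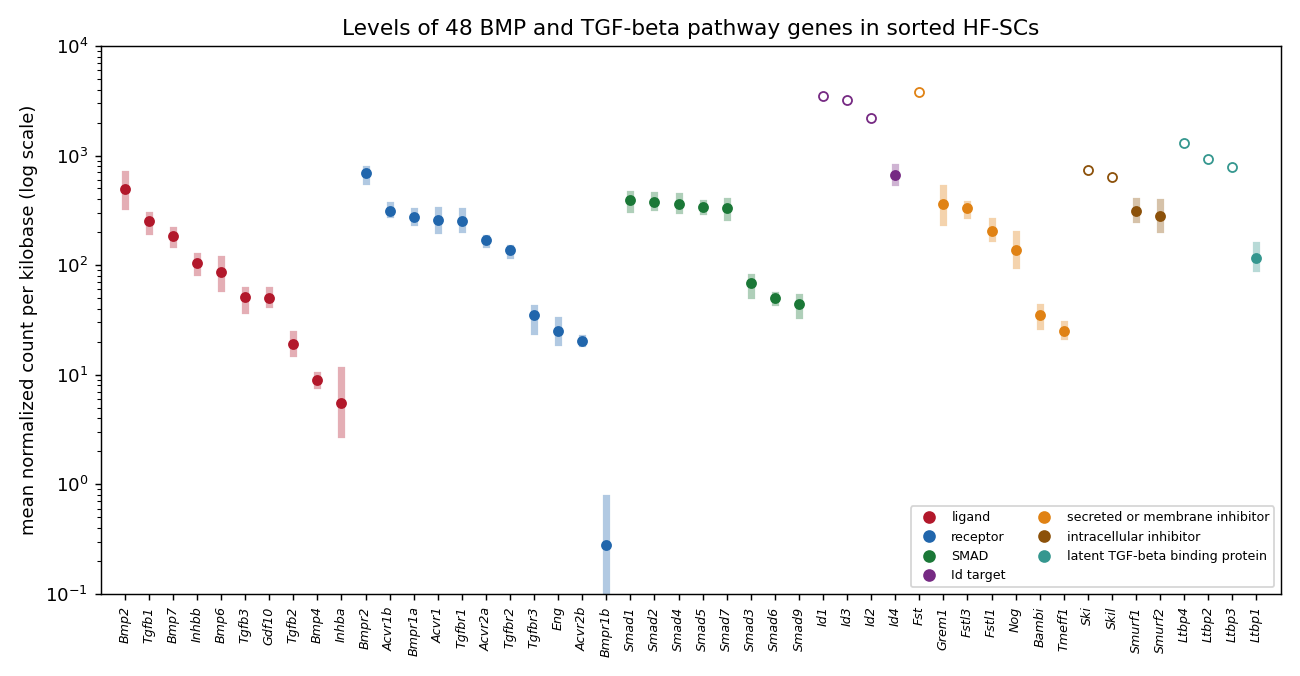
Mean normalized count per kilobase (log scale) of the 48 members, grouped by role and ordered from high to low. Bars span the lowest to the highest of the 4 unnamed libraries where reads were resolved (filled points), and open points have a mean only. The bar of Bmpr1b is clipped at the axis because 1 library had 0 reads. Fst, Id1, Id3 and Id2 lie at the top and Bmpr1b lies alone at the bottom.

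Among the ligands, Bmp2, which encodes a BMP made in the hair follicle and the surrounding skin, was the highest, at 498 normalized counts per kilobase (chr2:133377895-133388621). Its normalized counts in libraries 1 to 4 were 2063, 1374, 1227 and 2420. Libraries 1 and 4 were the high ones and libraries 2 and 3 the low ones. Bmp6, an epidermal BMP, had 377, 209, 245 and 327 normalized counts, with the same 2 libraries high. Bmp7 had 698, 769, 657 and 577, with library 4 the lowest, and Bmp4 was nearly silent, with 19.5, 16.6, 20.4 and 17.8 normalized counts from only 14, 16, 24 and 22 reads. Per kilobase, Bmp2 exceeded Bmp4 by 35.0 to 79.0 times within a library and Bmp7 by 1.85 to 4.33 times, and the ranges of these pairs did not overlap. Gdf10, a divergent member of the BMP family, had 222, 199, 165 and 164 normalized counts.

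Tgfb1, the TGF-β ligand of inflammation and wound repair, was the second highest ligand, at 251 normalized counts per kilobase (chr7:26472021-26490096). It had 448, 613, 622 and 501 normalized counts in libraries 1 to 4, so that libraries 2 and 3 were the high ones. Libraries 2 and 3 were also the high ones for the summed myeloid markers (2666, 4384, 5276 and 2310) and the resolved sebaceous markers (250, 498, 549 and 297). Most of the myeloid sum was Cd74 (2101, 3308, 3934 and 1634), while Itgam (26.5, 23.8, 48.4 and 43.7) and Cd68 (120, 241, 203 and 217) had other orders. The part of these cells in the level of Tgfb1 was not tested. Tgfb3, one of the genes with a miR-205 seed match above, had 184, 131, 200 and 175 normalized counts. Tgfb2, the isoform that dermal papilla cells are known to supply to HF-SCs, had 74.0, 89.0, 89.1 and 112. Per kilobase, Tgfb1 exceeded Tgfb3 by 3.78 to 7.25 times and Tgfb2 by 9.74 to 15.2 times within a library. The activin subunit gene Inhbb had 370, 510, 517 and 370 normalized counts, again with libraries 2 and 3 high. The other activin subunit gene, Inhba, had only 4, 21, 9 and 10 reads. The exact Poisson 95% intervals of these reads were 1.09 to 10.2 in library 1 and 13.0 to 32.1 in library 2. They cover counting error only and are of reads before scaling. After division by the size factors, 0.716 and 0.966, these intervals overlapped. Per kilobase, Inhbb exceeded Inhba by 10.8 to 31.2 times within a library.

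Receptor genes of both branches were read in every library. Bmpr2, the type II BMP receptor, was the highest per kilobase, at 694 (chr1:59821481-59927703), with 2471, 2070, 2541 and 2652 normalized counts in libraries 1 to 4. Acvr1b, the type I activin receptor, followed at 314 per kilobase (chr15:101004556-101043032), with 952, 1037, 1149 and 978 normalized counts. Bmpr1a, the type I BMP receptor needed for hair follicle differentiation, had 275 per kilobase, Acvr1, another type I BMP receptor, 257, and Tgfbr1, the type I TGF-β receptor, 251. Neighbours in the order Acvr1b, Bmpr1a, Acvr1 and Tgfbr1 overlapped in their library ranges. Lengths matter here, because with the median or the shortest annotated transcript, which can be a fragment, Bmpr1a and not Bmpr2 was the highest receptor. Among the other type II receptors, Acvr2a had 168 per kilobase and exceeded Acvr2b by 7.91 to 8.79 times within a library. Tgfbr2, the type II TGF-β receptor, had 138 per kilobase, and Bmpr2 exceeded it by 4.75 to 5.30 times.

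The type I BMP receptor Bmpr1b stood at the other end, with 0, 1, 1 and 5 reads in libraries 1 to 4 and a mean normalized count of 1.48. The exact Poisson 95% intervals were 0 to 3.69 for the 0 reads and 1.62 to 11.7 for the 5 reads, so no difference between libraries was detectable at this depth. Bmpr1b (chr3:141500100-141832389) is one of the 6 members with a seed match, but with 7 reads in all its level cannot show a change. The co-receptor genes were low, with Tgfbr3 (betaglycan) at 34.7 per kilobase and Eng (endoglin, abundant on endothelium) at 25.0. Eng had 71.2, 113, 80.6 and 92.2 normalized counts, lowest in library 1 and highest in library 2. The endothelial markers summed to 53.0, 165, 119 and 117, likewise lowest in library 1 and highest in library 2. So were the sums of the resolved fibroblast (174, 316, 223 and 254), melanocyte (342, 2020, 691 and 843) and suprabasal markers. Not every single marker had this order. Cdh5 of the endothelium was highest in library 4 (45.3), and Emcn, with 21 reads in all, was lowest there (1.62). Dpt of fibroblasts was highest in library 3 (39.9), and the suprabasal Krt1 was lowest in library 4 (1564). The part of such cells in the level of Eng was not tested.

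The SMAD genes formed a high and a low class per kilobase of the longest transcript. Smad1, a BMP-branch SMAD, had 393 per kilobase (chr8:81862294-81923417), Smad2 of the TGF-β branch 373, the shared Smad4 361, the BMP-branch Smad5 340 and the inhibitory Smad7 329. Neighbours among these 5 overlapped in their library ranges, and with the median or the shortest transcript Smad7 and not Smad1 was the highest. Smad1 had 1612, 1220, 1412 and 1694 normalized counts in libraries 1 to 4. Smad2 had 1032, 975, 1002 and 1249, with library 4 the high one. Below them were Smad3 at 68.5 per kilobase, the inhibitory Smad6 at 49.6 and the BMP-branch Smad9 at 44.2. On this scale 1 gene of each branch was far below its partners. Smad1 exceeded Smad9 by 7.39 to 10.6 times and Smad2 exceeded Smad3 by 4.53 to 8.12 times per kilobase within a library. The annotated Smad3 transcripts differ most of the SMADs, so its place in the order depends on the transcript taken. With the median transcript Smad3 had 576 per kilobase, above Smad5 (491) and Smad1 (479) and below Smad2 (816). With the shortest one it had 813. Smad7 exceeded Smad6 by 5.14 to 7.80 times.

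The Id genes, which encode inhibitors of basic helix-loop-helix factors, were among the highest of all. Id1 had 3521 normalized counts per kilobase (percentile 98.7, chr2:152561987-152563146), Id3 3221 (percentile 98.6, chr4:135699412-135701670), Id2 2180 (percentile 98.0) and Id4 669 (percentile 93.2). The mean normalized counts were 4085 for Id1, 4116 for Id3, 2768 for Id2 and 1111 for Id4. Reads per library could be resolved for Id4 alone, with normalized counts of 1129, 948, 1066 and 1299. Library 4 was the highest and library 2 the lowest for Id4. For Id1, Id2 and Id3 only the pooled mean is available, with no error.

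Of the secreted and membrane inhibitors, Fst, encoding follistatin, which binds activins, was the highest of the 48 members, at 3786 per kilobase (percentile 98.7, chr13:115242470-115249159) and a mean normalized count of 8847, although with the shortest transcripts Ltbp2 was the highest. Grem1, encoding the BMP antagonist gremlin, followed at 360 per kilobase (chr2:113586321-113598803), with 2108, 1031, 1116 and 1722 normalized counts in libraries 1 to 4. Libraries 1 and 4 were the high ones. With the median or the shortest transcript, Fstl3 and not Grem1 came next after Fst. Nog, encoding the BMP antagonist noggin, had 300, 201, 191 and 371 normalized counts with the same 2 libraries high. Per kilobase, Bmp2 exceeded Nog by 3.48 to 3.72 times, a narrow band beside the 1.97-fold range of Bmp2 and the 1.94-fold range of Nog over libraries, and Grem1 exceeded Nog by 2.15 to 3.25 times. Bambi, a pseudoreceptor that blocks signalling, had 201, 160, 140 and 209. The follistatin-like genes Fstl3 and Fstl1 had 334 and 206 per kilobase, and Tmeff1, a membrane protein that can block the activin-type signal, had 25.1.

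Inside the cell, the SMAD corepressor genes Ski and Skil had 745 (chr4:154528184-154596701) and 641 (chr3:30993980-31021499) per kilobase, from mean normalized counts of 4112 and 4306, and their order turned with the median or the shortest transcript. The ubiquitin ligase genes Smurf1 and Smurf2, whose products target SMADs and receptors, had 312 and 282 per kilobase. Smurf2 had 1495, 1122, 1347 and 2011 normalized counts, with library 4 the high one. The latent TGF-β binding proteins tether latent ligand to the matrix. Ltbp4 had 1293 per kilobase (chr7:28090155-28122711), Ltbp2 922 (chr12:86124162-86217482), Ltbp3 787 and Ltbp1 116, and the order of Ltbp4 and Ltbp2 turned with the shortest transcript. Ltbp1 had 1025, 642, 628 and 807 normalized counts in libraries 1 to 4.

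The spread over libraries was described for the 32 members with a mean of at least 100 and resolved reads. The highest library was over 1.5 times the lowest in 9 of the 32, against 17.1% of the 7999 genes treated the same way. The median ratio of highest to lowest was 1.40 for members and 1.27 for all of these genes. The 9 were Grem1 at 2.05, Bmp2 at 1.97, Nog at 1.94, Bmp6 at 1.80, Smurf2 at 1.79, Tgfbr3 at 1.64, Ltbp1 at 1.63, Acvr1 at 1.52 and Tgfb3 at 1.52. By role, they were 3 of 7 ligands, 2 of 8 receptors, 2 of 5 secreted or membrane inhibitors, 1 of 2 intracellular inhibitors and the only latent binding protein gene with resolved reads. None of the 8 SMAD genes was among them, and their ratios ran from 1.16 to 1.46. The narrowest members were Acvr2a at 1.14, Tgfbr2 at 1.15, Smad6 at 1.16 and Smad5 at 1.19. In 8 of the 32 the libraries lay in 2 pairs, with a gap of over 1.2 times between the pairs that was the widest gap of the gene, against 8.91% of the 7999 genes. With a gap of over 1.1 times it was again 8 of the 32, against 21.1%, so that the difference from the background depends on this limit, which was chosen after the values were seen.

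**Figure D2:**
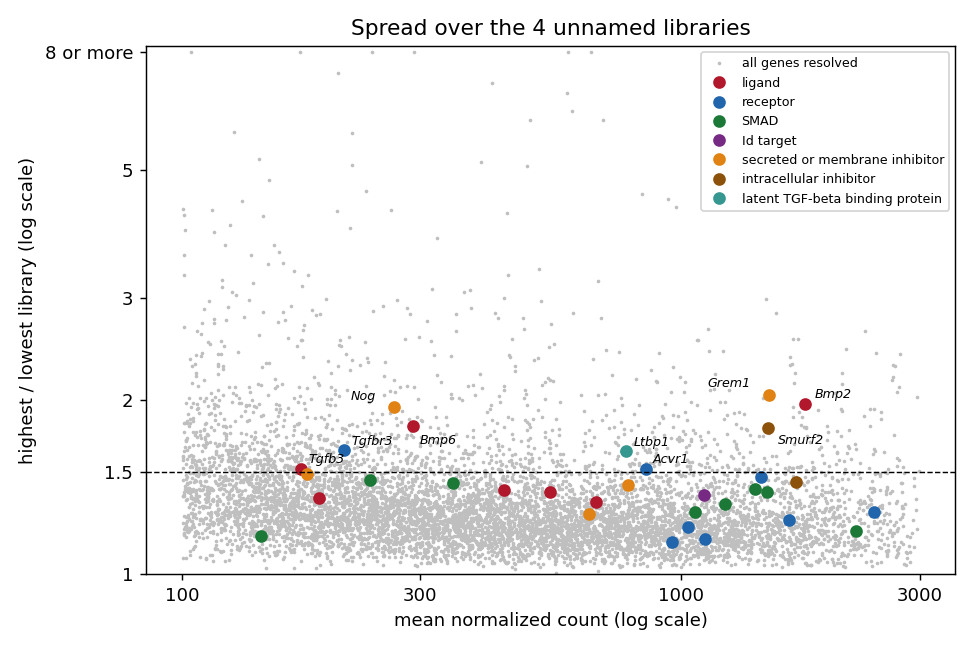
Ratio of the highest to the lowest of the 4 unnamed libraries against the mean normalized count (both axes log scale) for 7999 genes (grey) and 32 members (coloured by role). The dashed line marks 1.5, and the 9 named members lie above it, led by Grem1 at 2.05 and Bmp2 at 1.97.

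Tgfbr3, with a seed match, had 151, 247, 230 and 218 normalized counts, so that library 1 stood low and the other 3 lay together. Tgfbr1, also with a seed match, had 1429, 1225, 1313 and 1806, with library 4 the high one. Which of these libraries were induced is not known, so no value bears on an effect of miR-205 on these genes. Library 4 was the highest for 16 of the 32 members, against 31.2% of all genes treated the same way, and library 2, the one with the most suprabasal and melanocyte marker RNA, was the lowest for 14 (43.8%), against 28.3%. The part of those cells in this was not tested.

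**Figure D3:**
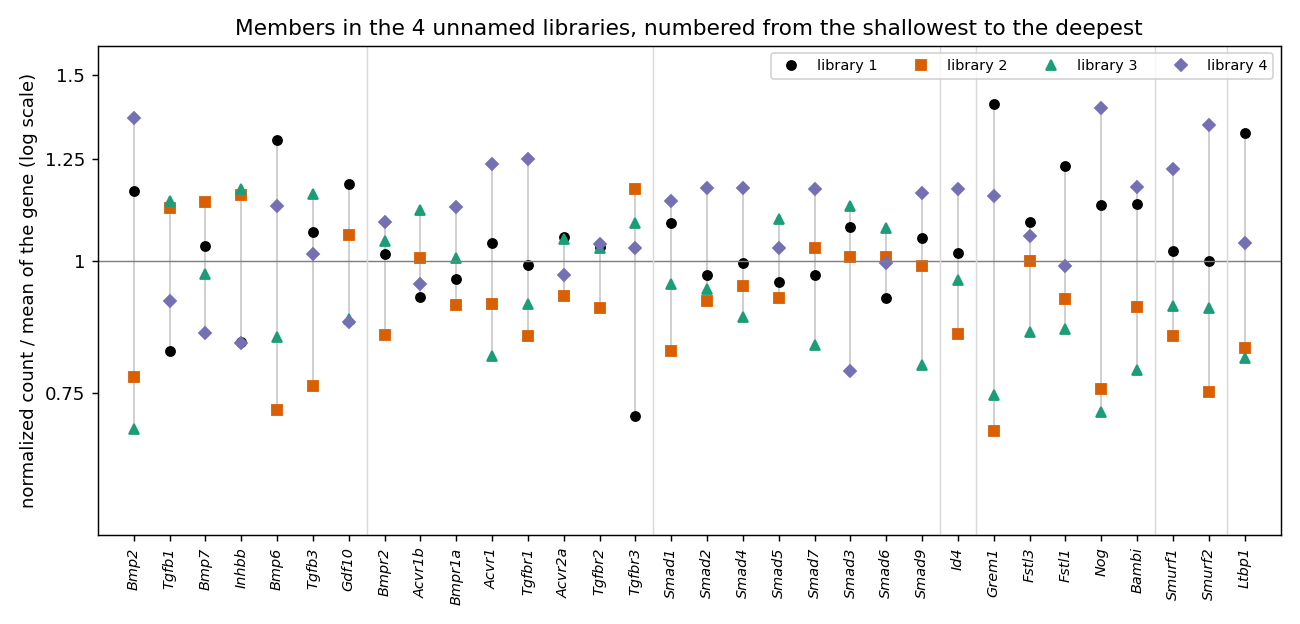
Normalized count of each of the 4 unnamed libraries divided by the mean of the gene (log scale) for the 32 members with a mean of at least 100, ordered by role. Library 4 is the highest for 16 members and library 2 the lowest for 14, while the receptors Acvr2a and Tgfbr2 are the most even.

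For Bmp2 and Nog, the counting intervals of the lowest and the highest library, 3 and 4, lay apart. Bmp2 rested on 1478, 1328, 1447 and 2993 reads, the only 1 of its 2 whole-number solutions with the highest library within 3 times the lowest. Its exact Poisson 95% intervals were 1373 to 1524 reads in library 3 and 2887 to 3102 in library 4. Nog rested on 215, 194, 225 and 459 reads, with intervals of 197 to 256 and 418 to 503 in the same libraries. These intervals are of reads before scaling, and the size factors of libraries 3 and 4 were 1.18 and 1.24. After division by size factors, the Nog intervals of libraries 2 and 3 overlapped, as the plot of the widest members shows. Those of libraries 1 and 4 overlapped as well.

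**Figure D4:**
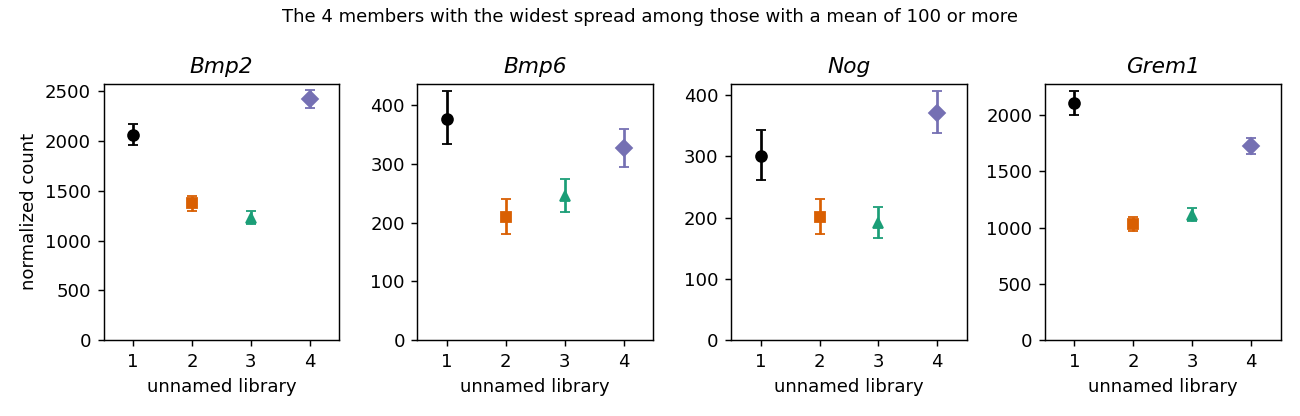
Normalized counts of Bmp2, Bmp6, Nog and Grem1 in the 4 unnamed libraries, each axis starting at 0, with exact Poisson 95% intervals of the reads as error bars. In each gene libraries 1 and 4 lie above libraries 2 and 3.

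Beyond the 48 members, 62 other genes of the pathway were looked up. Of these, 55 had a mean above 0, where 17044 of all 24421 genes did, and 41 had a mean of at least 10. More than 100 normalized counts per kilobase were found for 21, against 37.9% of the 15509 genes above 0 with a length. This list as a whole was thus not set apart from the background at that level. The highest ligand-class gene was Bmp1, a protease that processes matrix and ligand precursors, at 216 per kilobase. Cd109, a TGF-β co-receptor, had 980 per kilobase, the BMP inhibitor gene Nbl1 2092, the SMAD corepressor gene Tgif1 3635 and the TGF-β-induced matrix gene Tgfbi 5601. Thbs1, whose product can activate latent TGF-β, was far above every member, at 21930 per kilobase. At 0 were 7 genes of the list, 4 of them ligand genes, so that the ligand class was the sparsest here as among the members.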

How the data were processed

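HF-SCs of 2 control and 2 miR-205-induced samples were profiled by paired-end bulk RNA-seq with a directional library kit. Per the labels and the methods, the authors aligned reads with HISAT2 2.1.0, used SAMtools 1.3.1, counted with HTSeq and ran DESeq2 on the 2 groups. Versions of the latter tools, and how reads shared by paralogs were treated, were not given in the sources used here. The labels name mm10, and the methods give NCBI37/mm10. The deposited signal used here is the mean normalized count, which the authors averaged over the 4 libraries once each had been divided by its size factor. The other deposited columns hold the authors' own comparison (log2 fold change, its error, statistic, p-value and adjusted p) and were not used. The number of unused columns of values per sample was 0. The count test planned for the groups was not run, because the table holds no value for a named library.

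A mean is a sum of whole reads, each worth 1 step per library. The 4 steps were read from genes with very few reads, and whole-number solutions were searched by lattice enumeration. All 14591 genes with a mean above 0 and under 1000 had exactly 1 solution. From 1000 to 3000, a gene was resolved where 1 solution kept the highest library within 3 times the lowest (1579 of 1689 genes), which favours even values. Among the resolved members, this choice was needed for Bmp2 and Smurf2 (2 solutions each), Bmpr1a, Tgfbr1, Smad1, Smad5 and Smurf1 (3 each) and Bmpr2 (7). A wider spread of these genes was set aside by the rule. Higher means were not searched. The search was tested on simulated data. No library was assigned to a group.

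Places are on NCBIM37 with GENCODE vM1, matched by symbol and RefSeq synonym (GRCm38.p6), and no coordinate was converted. Lengths and 3′UTRs come from that annotation. Members, lists and limits were chosen with earlier results of these data known. All 48 members are named, and values are given in full for the 2 highest of each role per kilobase, every ligand and Id gene, and members with a mean under 10; of the 62 other pathway genes, the highest of each role is named. Members given in full beyond that, and the pairs compared, were chosen after their values were seen. Python 3.11.15, numpy 2.4.6, numba 0.67.0, pandas 2.3.3, scipy 1.17.1 and matplotlib 3.10.9 were used. An item withheld for evaluation is not reported here.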

Additional observations from a re-analysis of the deposited data

How the results depend on the processing

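All 48 members had a mean above 0, which was the condition for a member, 47 a mean of at least 10 and 44 a mean over 50. Against genes with a mean over 50 only, the percentile of the median member was 76.2. The member median per kilobase was 523 with the shortest transcript and 315 with the median transcript, and 37 and 35 members then exceeded 100 per kilobase. A 6-base seed match was found in 20 members (34.5% of all genes), an 8-base match in 1 (3.95%), and the 7-base match in 2 with the shortest 3′UTR (6.74%). The count of members whose highest library was over 1.5 times the lowest was 13 of 32 with the libraries rescaled by their median of ratios (18.2% of all genes), 11 of 35 with a mean of at least 50 (23.6%) and 8 of 28 with at least 200 (12.9%). Leaving out each unnamed library in turn gave 7 of 32 each time, where the background was 10.0% to 13.2%. No paired analysis was possible because the table holds no value for a named library, and leaving out a labelled replicate was not run for the same reason. Pooled means carry no error, total depth is unknown, and members with a mean of 3000 or more, Id1, Id3, Fst, Ski, Skil, Ltbp2, Ltbp3 and Ltbp4, and also Id2, have no value per library.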

Other observations

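In some members the libraries fell into pairs. By a rule added after the values were seen, a gene was counted where the gap between its 2 highest and its 2 lowest libraries exceeded 1.2 times and was the widest of its gaps. This held for 8 of the 32 members with a mean of at least 100 and resolved reads, against 8.91% of all 7999 such genes, and with 1.1 times in place of 1.2 it held for 8 members, against 21.1%. Among all 713 genes called, libraries 1 and 4 were the most frequent high pair (314 genes, 44% of the 713 and 3.93% of the 7999). In 5 of the 8 members called, libraries 1 and 4 were the high pair. These were Bmp2 with normalized counts of 2063, 1374, 1227 and 2420 in libraries 1 to 4, Grem1 with 2108, 1031, 1116 and 1722, Nog with 300, 201, 191 and 371, Bmp6 with 377, 209, 245 and 327, and Bambi with 201, 160, 140 and 209. Libraries 2 and 3, the high pair of 30.4% of the 713 genes, were high for Tgfb1, with 448, 613, 622 and 501, and for Inhbb, with 370, 510, 517 and 370. For Gdf10 libraries 1 and 2 were high, with 222, 199, 165 and 164. The libraries carry no group, the gap was not tested, and the pairs were defined by these same values.

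Of the 62 other pathway genes, 23 had a mean of at least 100 and resolved reads, and for 2 of these the rule was met with libraries 1 and 4 as the high pair. Sostdc1, which encodes an inhibitor of BMP and WNT signalling, had 2100, 1564, 1536 and 2098 normalized counts in libraries 1 to 4. Msx1, a homeobox gene known as a BMP target, had 169, 121, 108 and 159. Among the members' ligands, Bmp7 did not meet the rule, with 698, 769, 657 and 577.

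The 3 HF-SC marker genes with resolved reads had no common order. Foxc1 had 1191, 822, 890 and 1266 normalized counts, Tcf7l1 had 670, 604, 569 and 518, and Tcf7l2 had 666, 558, 649 and 623.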
